A study of Mus musculus with 12 samples.

Results

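Oxidative phosphorylation subunits were described in the cords of 13-day-old mice that model severe spinal muscular atrophy (SMA), in which too little survival motor neuron protein is made and motor neurons die. Members were all genes whose symbol in the array's platform annotation begins with the stems of complex I (Ndufa, Ndufb, Ndufc, Ndufs or Ndufv followed by a digit), complex II (Sdha to Sdhd), complex III (Uqcr), complex IV (Cox4 to Cox8) or complex V (Atp5). Only probe sets with 1 gene symbol were taken, and the brightest probe set stood for a gene. The rule found 78 genes, measured by 147 probe sets, among 12393 genes with such a probe set. They were 33 genes of complex I, 4 of complex II, 8 of complex III, 16 of complex IV and 17 of complex V. Of these, 73 passed the filter on low signal and were tested. The other 5, Cox4i2, Cox6a2, Cox7a1, Cox7c and Cox8b, did not and are given as signals. Ndufa4 was counted with complex I by its stem, although its protein is now placed in complex IV. Cox7b and Ndufa4l2 were not found through a probe set with 1 symbol and are not described.

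The study set 3 groups of 4 mice beside each other, with 1 expression array per mouse. All mice were of line 4299 on the FVB.Cg background, whose stock name lists the insertions Tg(SMN2*delta7)4299Ahmb and Tg(SMN2)89Ahmb and the allele Smn1tm1Msd. All carried 2 human transgenes, SMN2+/+ and SmnΔ7+/+. Wildtype mice had mSmn+/-, so the control group was heterozygous for mouse Smn and also carried both transgenes, and they received vehicle. SMA mice had mSmn-/- and received either vehicle or ceftriaxone, a beta-lactam antibiotic, injected into the peritoneum at 200 mg/kg daily from day 5. The mouse gene is lost in every cell of these animals. The labels call the vehicle groups both untreated and vehicle-treated, name both whole cords and a lumbar stretch of cord, and give no sex. The p-values measure the spread between these 4 mice per group. In whole tissue, fewer cells of a type and less RNA per cell cannot be told apart.

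Oxidative phosphorylation makes most of the ATP of a neuron. Complex I takes electrons from NADH and complex II takes them from succinate, both pass them through ubiquinone to complex III, and cytochrome c carries them on to complex IV, which reduces oxygen. The protons pumped on the way drive ATP synthase, complex V. All members are encoded in the nucleus, and their proteins are imported into mitochondria and assembled with a few subunits made from mitochondrial DNA.

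One array stood apart. Wildtype array 2 carried genes of the thymus: the summed signal of 10 measured thymocyte genes was 40748 there and 111.1 to 612.3 on the other 11 arrays. Correlations of log2 signal within the wildtype group were 0.924 to 0.930 where they involved it and 0.986 to 0.989 where they did not. Results are therefore given with all 12 arrays and without this one. Smn1, the targeted gene, had signals of 263.4 to 414.3 in wildtype and 3.3 to 15.8 in the SMA groups. Xist, the RNA that coats the silenced X in female cells, was above 1000 on 1 wildtype, 2 SMA vehicle and all 4 SMA ceftriaxone arrays. Cord markers were present on every array: the summed signal of 12 neuron genes was 58170 to 86790. The number of arrays limits the precision, and the median standard error of a log2 difference was 0.08 over the tested members.

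Promoters of 64 of the 78 members were found in a RefSeq table of promoters (build GRCm38.p6), with 69 start sites. The window ran from 250 bases before to 50 bases after the start, and 3 motifs named for factors that are known to act on many respiratory genes or on housekeeping genes were searched on both strands. The NRF1-type motif, which is GCGC and TGCGC with 1 base of any kind between them, was in 14 of the 64 members (21.9%) and in 5.19% of all 27025 genes of the table. The ETS-type motif CCGGAAG was in 17 members (26.6%) and 9.93% of all genes, and the Sp1-type motif GGGCGGGG in 12 members (18.8%) and 19.6% of all genes. A match is a description of letters, not a site. The 200 bases before the start are shown for 4 members that passed the test below in opposite directions: Cox6b2 and Ndufa5, which rose in SMA vehicle cords, and Sdha and Atp5h, which fell. Capitals mark the motif matches, on either strand.
Cox6b2: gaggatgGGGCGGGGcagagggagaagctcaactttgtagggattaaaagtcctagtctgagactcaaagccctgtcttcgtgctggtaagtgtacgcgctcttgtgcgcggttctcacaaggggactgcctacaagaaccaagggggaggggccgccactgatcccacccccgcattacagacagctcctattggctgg
Ndufa5: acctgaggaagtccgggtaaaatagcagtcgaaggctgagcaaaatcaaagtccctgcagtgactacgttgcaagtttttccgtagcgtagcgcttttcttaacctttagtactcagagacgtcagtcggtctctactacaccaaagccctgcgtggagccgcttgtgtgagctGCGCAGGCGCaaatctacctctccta
Sdha: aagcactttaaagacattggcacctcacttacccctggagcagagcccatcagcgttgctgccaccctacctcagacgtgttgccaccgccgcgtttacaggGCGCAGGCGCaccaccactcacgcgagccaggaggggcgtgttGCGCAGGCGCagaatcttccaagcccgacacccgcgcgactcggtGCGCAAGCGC
Atp5h: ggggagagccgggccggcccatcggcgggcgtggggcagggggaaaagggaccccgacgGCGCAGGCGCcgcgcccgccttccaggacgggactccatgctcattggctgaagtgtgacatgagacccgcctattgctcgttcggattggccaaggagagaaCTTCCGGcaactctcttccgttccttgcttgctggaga
The Cox6b2 stretch lies at chr7:4753095-4753294 on the minus strand and has 1 Sp1-type match, which begins 193 bases before the start. That of Ndufa5 lies at chr6:24527691-24527890 on the minus strand, at the more upstream of its 2 listed starts, with 1 NRF1-type match 26 bases before the start. Sdha (chr13:74350241-74350440, minus strand) has 3 NRF1-type matches, 98, 55 and 10 bases before the start. Atp5h (chr11:115419920-115420119, minus strand) has an NRF1-type match 141 bases and an ETS-type match 38 bases before the start. Among members called in SMA vehicle against wildtype that have a listed promoter, 2 of 4 higher and 2 of 9 lower members held the NRF1-type motif, so the motif stood on both sides. Both lower ones, Sdha and Atp5h, are among the 4 shown, so the printed stretches do not stand for the other lower members.

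Across the 5 complexes, most subunit genes lay a little lower in SMA vehicle than in wildtype cords (59 of 73 tested), and 14 lay higher. Each member's deviation from its own mean over the 12 arrays was taken on the log2 scale, and the median over the 73 tested members gives each array's level. It was 0.05, -0.19, 0.11 and 0.17 on wildtype arrays 1 to 4, and -0.10, -0.02, -0.07 and -0.10 on the SMA vehicle arrays. On the SMA ceftriaxone arrays it was 0.02, 0.02, -0.00 and 0.08. Wildtype arrays 1, 3 and 4 were above every SMA vehicle array, and wildtype array 2 was below all others. That array was the lowest of the 4 wildtype arrays for 68 of 73 members and the lowest of all 12 for 45. The summed signal of the 12 neuron genes was also lowest there, 58170 against 82884 to 86790 on the other wildtype arrays. The part of the thymus genes in the low level of the members was not tested.

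**Figure D1:**
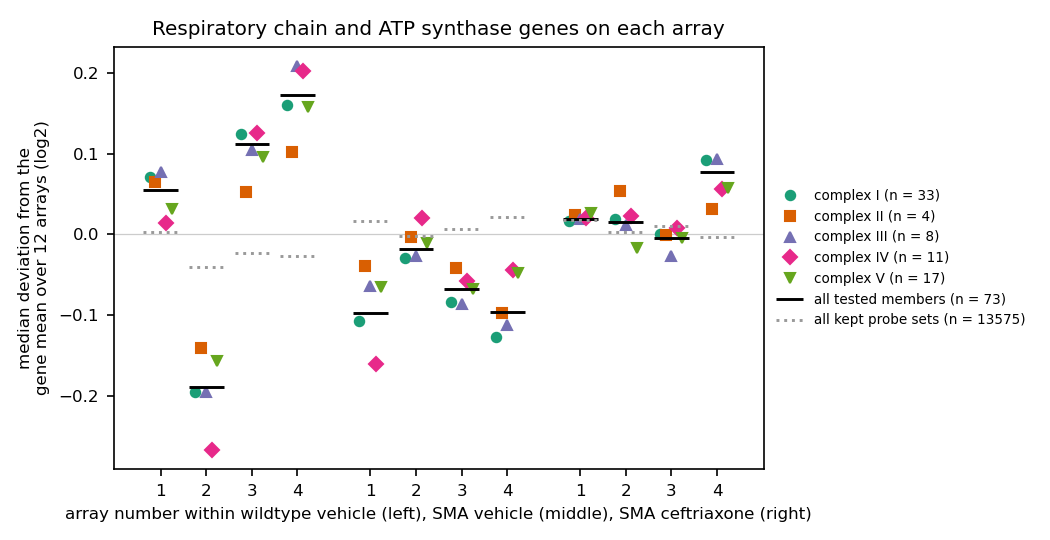
Median deviation (log2) of the tested members from each gene's mean over the 12 arrays, by complex (coloured marks), over all 73 tested members (black lines) and over all 13575 kept probe sets (dotted lines), for each array of the 3 groups. The 5 complexes move together from array to array, from -0.19 over all members on wildtype array 2 to 0.17 on wildtype array 4.

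The first question was how the genotype bears on the subunit genes when no drug is given. The test was limma's moderated test of the log2 difference (signal plus 16) with Benjamini-Hochberg adjustment over all 13575 kept probe sets and a threshold of 0.05. It called 12 members lower and 4 higher, and 57 did not pass. Over all kept probe sets, 22.3% were called lower and 24.9% higher, so the members' shares, 16.4% and 5.48%, did not exceed this background. The median log2 difference of the members was -0.10, a signal lower by 6.89%, against 0.01 for all kept probe sets, and 59 of 73 members had a negative difference. Without wildtype array 2 the calls were 45 lower and 4 higher of 73, against 27.5% lower and 30.9% higher over all probe sets. The median was then -0.18, a signal lower by 11.5%, against 0.03 for all kept probe sets, and 68 of 73 differences were negative. The groups did not overlap in 3 tested members on the higher and 8 on the lower side, and in 3 and 41 without wildtype array 2. Over all kept probe sets the shares without overlap were 22.9% and 19.6%, and 32.3% and 28.3% without that array.

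The median was negative in each complex. The median log2 difference was -0.15 in complex I, -0.07 in complex II, -0.12 in complex III, -0.13 in complex IV and -0.08 in complex V. Without wildtype array 2 these medians were -0.22, -0.13, -0.20, -0.21 and -0.15. The calls, higher and lower, were 1 and 8 of 33 in complex I, 1 and 1 of 4 in complex II, 2 and 1 of 11 in complex IV, and 0 and 2 of 17 in complex V. In complex III limma called 0 of 8, with 2 members lower at an unadjusted p under 0.05, and in complex V no member was higher at that level. Without wildtype array 2 the lower calls were 20, 3, 6, 7 and 9 in complexes I to V, and the higher calls were in the same complexes as before, 1, 1 and 2 in complexes I, II and IV. The count of lower members was 37 after loess normalization between arrays, 46 with array weights and 3 after median centring, where 3527, 3951 and 2517 of the 13575 probe sets were called lower.

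Other cell markers moved between the same groups. All 10 measured genes of mature oligodendrocytes, the myelin-forming cells, fell in SMA vehicle cords (median log2 difference -2.35). Their summed signal was 89672 to 144960 in wildtype, 26323 to 55470 in SMA vehicle and 104611 to 114935 in SMA ceftriaxone cords. Of 12 neuron genes 6 rose and 3 fell, and of 10 astrocyte genes 3 rose and 5 fell. Of 9 tested microglia and macrophage genes 6 fell (median -0.42), and of 8 endothelium genes 5 fell (median -0.47). These counts of calls are to be read against 24.9% of all kept probe sets called higher and 22.3% called lower. The members are bright: 69 of 73 tested lay above the 90th percentile of mean signal. The brightest signals of the arrays moved as well: the 99th percentile was 9799, 9808, 10884 and 10832 on wildtype arrays 1 to 4, 9831 to 10519 on SMA vehicle and 10249 to 10550.3 on SMA ceftriaxone arrays. The 95th percentile was 4080, 3895, 4180 and 4134 on wildtype arrays 1 to 4, lowest of all on array 2. It was 4106 to 4164 on SMA vehicle and 4101 to 4122 on SMA ceftriaxone arrays. The part of these in the shift of the members was not tested.

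**Figure D2:**
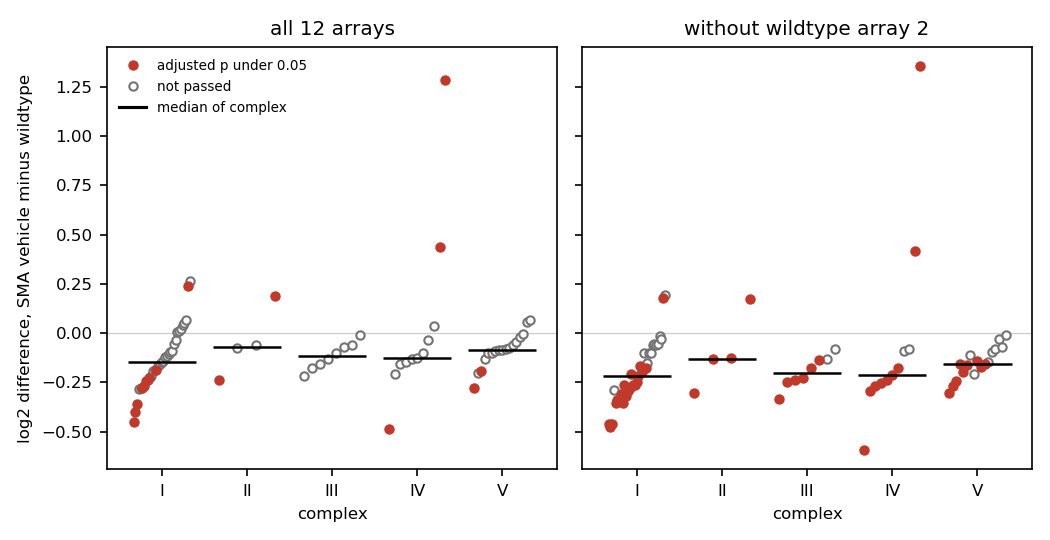
Log2 difference of each tested member, SMA vehicle minus wildtype, by complex, with all 12 arrays (left) and without wildtype array 2 (right). Filled points passed the adjusted threshold of 0.05, open points did not, and black lines are the medians of the complexes. Without that array 45 members passed on the lower side, against 12 with it, and Cox6b2 and Cox7a2l stand above the others in both.

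In complex I the 2 largest falls were those of accessory subunits. Ndufa2, an accessory subunit of the NADH-oxidising module, had signals of 4563, 4550.4, 5075 and 4504 on wildtype arrays 1 to 4. In SMA vehicle cords it had 3278, 3758, 3651 and 3008, and in SMA ceftriaxone cords 3609.9, 4582, 3795 and 4539.7. All SMA vehicle values lay under all wildtype values, and the ceftriaxone values reached into both ranges. The log2 difference of SMA vehicle from wildtype was -0.45 ± 0.10 (SE; limma adjusted p = 0.00172).

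Ndufb10, an accessory subunit of the membrane arm, had 4323, 3677, 4799 and 4557 in wildtype. It had 3237, 3468, 3221 and 3167 in SMA vehicle cords, and 3520.1, 3619, 3623 and 3755 with ceftriaxone. The lowest wildtype value, from array 2, still lay above all SMA vehicle values. The difference was -0.40 ± 0.08 (adjusted p = 0.000980), and -0.48 without wildtype array 2.

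Ndufs7, a core subunit whose iron-sulfur cluster hands electrons to ubiquinone, had 4390.5, 3473, 4481 and 4947 in wildtype. In SMA vehicle cords it had 3323, 3819.5, 3282 and 2992, and with ceftriaxone 4277, 4378, 4099.7 and 4442. Only wildtype array 2 reached into the SMA vehicle range. Ndufs7 fell by 0.36 on the log2 scale (SE 0.10; adjusted p = 0.0109), and its second probe set, by 0.32 (adjusted p = 0.0111).

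The single called rise in this complex was that of Ndufa5, an accessory subunit of the ubiquinone-binding module. Its signals were 4171, 3310.5, 3751 and 3869.9 in wildtype, 4124, 4515, 4656 and 4476 in SMA vehicle and 4089, 4118, 3849.7 and 4477.5 in SMA ceftriaxone cords. Wildtype array 1 and SMA vehicle array 1 overlapped. The difference was 0.24 ± 0.08 (adjusted p = 0.0234), and a second probe set gave 0.20 (adjusted p = 0.0688). The Ndufa5 call was not passed without SMA vehicle array 2 (adjusted p = 0.0551), 3 (0.0691) or 4 (0.0535).

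Of the other members of complex I called lower, Ndufb3, of the membrane arm, fell by 0.28 on the log2 scale (adjusted p = 0.00409). Ndufa13, also known as GRIM-19, differed by -0.27, Ndufa9 by -0.24, Ndufb6 by -0.23 and the X-linked Ndufb11 by -0.19. The call of Ndufa13 was lost without wildtype array 3 or 4 or SMA vehicle array 1, 3 or 4 (adjusted p = 0.0747, 0.0725, 0.0570, 0.0501 and 0.0658), that of Ndufa9 without wildtype array 4 (0.0575) or SMA vehicle array 4 (0.0514). Ndufb6 lost its call without wildtype array 3 (0.0503) or SMA vehicle array 1 (0.0538). Ndufb11 lost it without wildtype array 3 (0.0635) or 4 (0.0852), or SMA vehicle array 1 (0.0741) or 4 (0.0844). The other Ndufb6 probe set gave -0.02 (adjusted p = 0.893) and the mean of both -0.12 (adjusted p = 0.160). For Ndufb11, 2 further probe sets gave -0.09 and -0.11 (adjusted p = 0.392 and 0.224), and the mean of all -0.13 (adjusted p = 0.123).

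The other core subunits of complex I did not pass with all arrays. Their differences from wildtype were -0.14 for Ndufs1, which carries iron-sulfur clusters near the NADH site, -0.04 for Ndufs3, -0.09 for the flavin-binding Ndufv1 and -0.11 for Ndufv2. Ndufs8, an iron-sulfur subunit, differed by -0.29 (adjusted p = 0.0621). Its SMA vehicle signals were 6173, 7049.9, 8317 and 5334 against 7782 to 8259 in wildtype, so that array 3 alone reached the wildtype level, and without it the call was passed (adjusted p = 0.00984). When wildtype array 2 was left out, Ndufs1 (adjusted p = 0.0101) and Ndufv2 (0.00586) passed on the lower side. The X-linked Ndufa1 differed by 0.01 and Ndufa4 by 0.07, and neither passed.

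The remaining members of complex I are accessory subunits that did not pass with all arrays. Ndufs5 differed by -0.28 (adjusted p = 0.0930), Ndufc1 by -0.22 (adjusted p = 0.0601) and Ndufa7 by 0.02. Negative differences of -0.24 to -0.15 were also those of Ndufa3, Ndufa10, Ndufa12, Ndufb5, Ndufb9 and Ndufb8, and smaller ones those of Ndufb7, Ndufs4, Ndufa8 and Ndufv3. Of the 10 from Ndufa3 to Ndufv3, all but Ndufs4 and Ndufv3 passed on the lower side when wildtype array 2 was left out. Ndufb9, for example, had 8828, 7041, 9765 and 9903 on wildtype arrays 1 to 4 and 8025, 8353, 7673 and 7545 on SMA vehicle arrays, so that array 2 alone kept the groups from standing apart. Ndufc2, Ndufb2 and Ndufa6 differed by 0.01, 0.04 and 0.05. Ndufb1, at 0.26 (adjusted p = 0.0876), had the highest difference of the complex and passed neither with nor without that array.

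Complex II had subunits on both sides. Sdha, the flavoprotein that oxidises succinate, had 5273, 4710.5, 5684 and 5872 on wildtype arrays 1 to 4. It had 4480.2, 4607, 4729.8 and 4367 in SMA vehicle cords, and 5152, 5376, 5083.5 and 5345.5 with ceftriaxone. Wildtype array 2 lay just within the SMA vehicle range, and every ceftriaxone value lay above it. The log2 difference from wildtype was -0.24 ± 0.07 (adjusted p = 0.0135), and a second Sdha probe set gave -0.46 (adjusted p = 0.00127).

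Sdhd, a membrane anchor of the complex, had 3272, 3021, 3075 and 3118 in wildtype, 3645, 3546, 3525 and 3498 in SMA vehicle and 3338, 3303, 3432 and 3182 in SMA ceftriaxone cords. All SMA vehicle values were above all values of the other groups. The difference was 0.19 ± 0.05 (adjusted p = 0.0132). A second, dimmer Sdhd probe set gave -0.16 (adjusted p = 0.384), and the mean of both probe sets gave 0.01 (adjusted p = 0.923). Sdhb, the iron-sulfur subunit, and Sdhc, the other anchor, differed by -0.08 and -0.06 and did not pass. With wildtype array 2 left out both passed on the lower side, Sdhb at -0.13 (adjusted p = 0.0372) and Sdhc at -0.13 (adjusted p = 0.0410).

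In complex III all 8 differences were negative, from -0.22 to -0.01. Uqcr11, a small accessory subunit, had 5997, 4375, 5953 and 6235 in wildtype, 4909, 5163, 4719.8 and 4421 in SMA vehicle and 5613, 5425, 5167 and 5677 in SMA ceftriaxone cords. Wildtype array 2 lay under every SMA vehicle array, and the other 3 wildtype arrays lay above them. The Uqcr11 difference was -0.22 with all arrays (adjusted p = 0.0896) and -0.34 without wildtype array 2 (adjusted p = 0.000297). The core proteins Uqcrc1 and Uqcrc2 differed by -0.13 and -0.07 with all arrays, and by -0.23 (adjusted p = 0.00648) and -0.13 (adjusted p = 0.0240) without it. The Rieske iron-sulfur protein Uqcrfs1, which passes electrons to cytochrome c1, differed by -0.01 with all arrays and -0.08 without that array, and passed in neither.

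Uqcrh, the hinge protein beside cytochrome c1, had 6957.5, 5890.1, 7131 and 7318.5 in wildtype, 5834, 6421, 5969 and 5838 in SMA vehicle and 6047, 6786, 6916.5 and 7103 in SMA ceftriaxone cords. Wildtype array 2 again lay among the SMA vehicle values, under wildtype arrays 1, 3 and 4. The Uqcrh difference was -0.18 (adjusted p = 0.0794). The small subunits Uqcrq, Uqcr10 and Uqcrb differed by -0.16, -0.10 and -0.06. Of these 4, all but Uqcrb passed on the lower side when wildtype array 2 was left out.

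Complex IV held the largest rise of all members. Cox6b2 encodes an isoform of the subunit that joins the monomers of the complex IV dimer and is known from testis. Its signals were 390.7, 450.1, 392.9 and 329.2 on wildtype arrays 1 to 4, 1016, 981.2, 959.3 and 929.8 on SMA vehicle arrays, and 625.0, 443.2, 721.8 and 430.4 on SMA ceftriaxone arrays. The wildtype and SMA vehicle values were far apart, and 2 of the 4 ceftriaxone values lay within the wildtype range. The difference was 1.29 ± 0.15 (adjusted p = 1.99e-05) and stayed between 1.21 and 1.36 when any single array was left out. Cox6b1, the isoform of most tissues, differed by -0.10 (adjusted p = 0.311), and by -0.18 without wildtype array 2 (adjusted p = 0.00675).

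Cox7a2l, a factor that joins complexes III and IV into supercomplexes, was the next. It had 4213, 3841, 3844 and 4124 in wildtype, 5388, 5555, 5455 and 5297 in SMA vehicle and 4461, 4700.1, 4450.5 and 4639.6 in SMA ceftriaxone cords. The 3 groups did not overlap, with the ceftriaxone values between the others. The difference was 0.44 ± 0.06 (adjusted p = 3.90e-05). The brightest Cox7a2l probe set is of a type whose probes may also match other transcripts, and 2 further probe sets of the gene gave 0.20 (adjusted p = 0.0372) and 0.13 (adjusted p = 0.148). Cox7a2, its close relative in complex IV itself, differed by -0.03 (adjusted p = 0.737).

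Cox8c, an isoform known from testis, was the only member of complex IV called lower. It had 338.0, 221.8, 256.8 and 314.3 in wildtype, 178.4, 192.6, 196.3 and 211.0 in SMA vehicle and 213.8, 203.5, 257.6 and 275.2 in SMA ceftriaxone cords. The 2 vehicle groups did not overlap, but wildtype array 2 was near the SMA vehicle values. The difference was -0.49 ± 0.14 (adjusted p = 0.0116), and it missed the threshold after quantile normalization (adjusted p = 0.0503). Cox8a, the isoform of most tissues, differed by 0.04 with all arrays and -0.08 without wildtype array 2, and passed in neither.

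Cox4i1, the regulatory subunit of most tissues, had 13874, 11987, 15396 and 16352 in wildtype, 12061, 12639, 12527 and 12246 in SMA vehicle and 14014, 14076, 13739.9 and 15371 in SMA ceftriaxone cords. Array 2 was the lowest and the other wildtype arrays lay above all SMA vehicle arrays. The difference was -0.21 (adjusted p = 0.0561), and -0.29 without wildtype array 2 (adjusted p = 0.000767). Cox6a1 differed by -0.15 (adjusted p = 0.262), and by -0.26 without that array (adjusted p = 0.00954). Cox5a and Cox5b, the subunits on the matrix side, differed by -0.13 and -0.16 with all arrays and passed on the lower side, at -0.21 and -0.27, without it.

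In complex V 2 small subunits were called lower. Atp5h, subunit d of the peripheral stalk that holds the catalytic head in place, had 10364, 10209.5, 11889.8 and 10683 in wildtype. It had 8473, 9218, 8662 and 9152 in SMA vehicle cords and 10081, 10057, 10227 and 10865 with ceftriaxone. The SMA vehicle values lay under all others. The difference was -0.28 ± 0.06 (adjusted p = 0.00249), and the second Atp5h probe set gave -0.31 (adjusted p = 0.000808). Atp5mpl, a small proteolipid of the membrane part, differed by -0.19 (adjusted p = 0.0196; 0.0617 without wildtype array 4).

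The subunits that form the catalytic head and the rotor did not pass with all arrays. Atp5a1 (alpha) differed by -0.04, Atp5b (beta) by -0.08 and Atp5c1 (gamma) by -0.02. The 3 genes that encode the same ring subunit c, Atp5g1, Atp5g2 and Atp5g3, differed by 0.06, -0.13 and -0.10. When wildtype array 2 was left out, Atp5b (-0.15, adjusted p = 0.0176), Atp5g2 (-0.16, adjusted p = 0.0263) and Atp5g3 (-0.20, adjusted p = 0.0234) passed on the lower side. Atp5a1 (adjusted p = 0.145), Atp5c1 (0.285) and Atp5g1 (0.260) did not.

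Of the other members of complex V, Atp5k, subunit e of the membrane part, was nearest to the threshold at -0.20 (adjusted p = 0.0671), and it passed at -0.27 when wildtype array 2 was left out. Atp5pb, Atp5j, Atp5md, Atp5j2, Atp5d and Atp5l lay between -0.10 and -0.06, of which Atp5pb, Atp5j2 and Atp5d passed on the lower side without that array. Atp5e differed by -0.00. Atp5o, the protein that joins the peripheral stalk to the head, had 8620.5, 7980.1, 9473.5 and 11294 in wildtype and 9179, 10324, 9161 and 10139 in SMA vehicle cords. The 2 groups overlapped throughout, and the difference was 0.06 (adjusted p = 0.617).

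**Figure D3:**
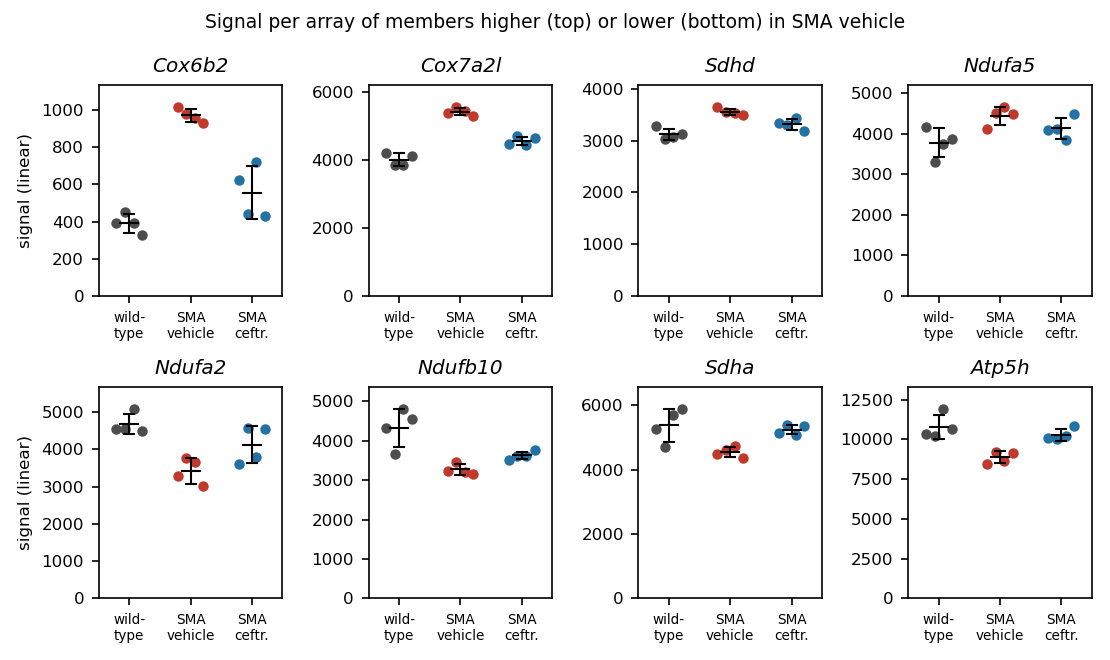
Signal (linear scale) of 8 members on each of the 4 arrays of wildtype, SMA vehicle and SMA ceftriaxone cords, with the mean and SD in black and an axis from 0. The upper row shows the 4 members called higher in SMA vehicle against wildtype cords and the lower row 4 of the 12 called lower. The Cox6b2 values of 929.8 to 1016 in SMA vehicle cords stand far above the wildtype values of 329.2 to 450.1.

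In SMA vehicle against wildtype, centring each array on its median removed the calls of 10 members. Only Cox6b2, Cox7a2l, Sdhd, Ndufa2, Ndufb10 and Cox8c kept their calls there. The Cox6b2, Cox7a2l, Ndufa2 and Ndufb10 calls of this comparison held under all 28 alternatives.

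The isoforms of complex IV that are known from heart and skeletal muscle lay near the bottom of the signal range. Cox8b had 108.8, 95.9, 189.4 and 78.6 on wildtype arrays 1 to 4, 170.6, 387.0, 158.6 and 96.7 on SMA vehicle arrays, and 59.0, 42.9, 77.0 and 29.4 on SMA ceftriaxone arrays. The ceftriaxone values lay under all others, and SMA vehicle array 2 was the highest. In a fit over all probe sets, without the filter, Cox8b fell by 1.58 on the log2 scale with ceftriaxone against vehicle (adjusted p = 0.00807), and its adjusted p stayed between 0.00535 and 0.0290 when any single array was left out. Cox6a2 ran from 62.4 to 171.9 and Cox7a1 from 70.3 to 180.3 over the 12 arrays. The mean of Cox6a2 was 81.8 for wildtype, 128.05 for SMA vehicle and 89.05 for SMA ceftriaxone arrays. That of Cox7a1 was 145.45, 115.05 and 87.05 in the same order. For both genes the SMA vehicle values overlapped the wildtype values. Cox4i2, known from lung and low oxygen, ran from 26.2 to 73.1, and the probe set of Cox7c, a subunit of all tissues, from 30.8 to 143.2.

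Marker genes of muscle, and less clearly those of brown fat, which also uses Cox8b, moved between the same groups. The summed signal of 15 measured skeletal muscle genes was 1244 to 2731 in wildtype, 3317 to 7362 in SMA vehicle and 574.6 to 1253 in SMA ceftriaxone cords. The ranges did not overlap between SMA vehicle and the other groups, and none of the 15 was at 0 on any array. Only 4 of the 15 passed the filter on mean signal, which the high SMA vehicle arrays raise, so no count of calls is given for them. Acta1, skeletal muscle actin, had 1139.9 to 3430.2 on SMA vehicle and 154.4 to 327.3 on ceftriaxone arrays. Ucp1, the uncoupling protein of brown fat, had 264.5, 811.6, 200.6 and 115.2 on the SMA vehicle arrays, highest on array 2 as Cox8b was, and 8.3 to 88.2 with ceftriaxone. The summed signal of 6 brown fat genes was 613.8 to 1305 in wildtype, 797.5 to 2813 in SMA vehicle and 397.7 to 897.3 in SMA ceftriaxone cords, so these ranges overlapped. That of 6 heart muscle genes, all below the filter, was 124.0 to 182.8 in wildtype, 244.1 to 340.6 in SMA vehicle and 142.1 to 199.0 in SMA ceftriaxone cords. For this sum too, SMA vehicle did not overlap the other groups. Unlike the muscle sums, the mean of Cox7a1 was lower on SMA vehicle than on wildtype arrays, while that of Cox6a2 was higher. The part of such cells in the Cox8b, Cox7a1 and Cox6a2 values was not tested.

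**Figure D4:**
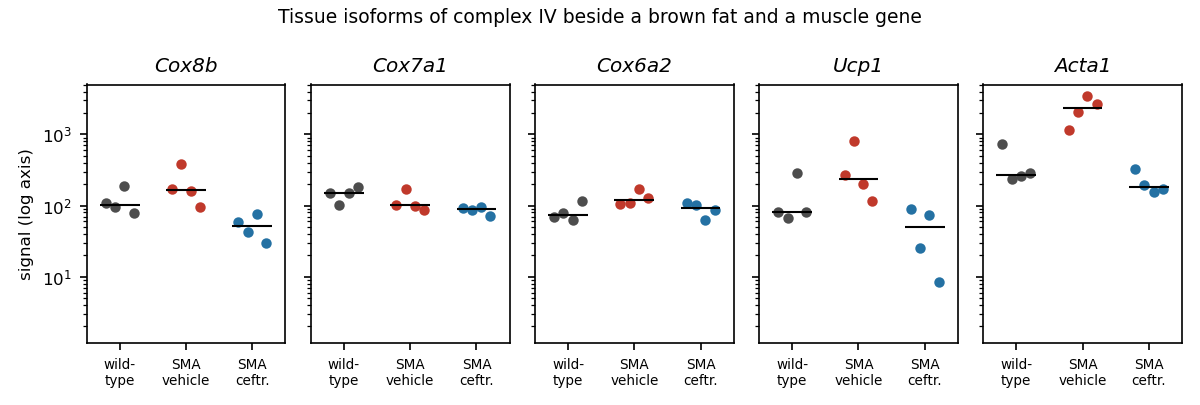
Signal on a log axis of 3 tissue isoforms of complex IV (Cox8b, Cox7a1, Cox6a2), of the brown fat gene Ucp1 and of the muscle gene Acta1 on each of the 4 arrays per group, with the group median as a black line. Cox8b and Ucp1 are both highest on SMA vehicle array 2 (387.0 and 811.6), and Acta1 is above 1000 on the SMA vehicle arrays alone.

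The next question was how ceftriaxone bears on the subunit genes of SMA mice. Most differences were small and positive, and the 2 strongest rises of SMA vehicle cords, Cox6b2 and Cox7a2l, fell. This comparison shares its vehicle arrays with the one above, so an opposite sign in both is no independent result. Limma called 7 members higher and 2 lower of 73, against 18.3% and 17.7% of all kept probe sets, with a median of 0.09 against -0.01 for all kept probe sets. The members called were 9.59% and 2.74% of those tested, below both backgrounds. The groups did not overlap in 20 tested members on the higher and 5 on the lower side, against 22% and 23.3% of all kept probe sets. With wildtype array 2 left out, which enters here only through the shared estimate of the spread, 22 were higher and 3 lower, against 24.6% and 25.6%.

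Cox6b2 fell by 0.82 ± 0.15 (adjusted p = 0.00112) and Cox7a2l by 0.25 ± 0.06 (adjusted p = 0.00397), with no overlap between the SMA groups in either. The other Cox7a2l probe sets differed by -0.06 and -0.02 and did not pass, and the mean of its probe sets gave -0.11 (adjusted p = 0.162). Sdhd, the other non-overlapping rise of SMA vehicle cords, differed by -0.10 (adjusted p = 0.172).

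Of the 7 higher members, 5 belong to complex I, which held 33 of the 73 tested. This is 15.2% of its members, below the 18.3% of all kept probe sets called higher. Ndufs5, an accessory subunit facing the intermembrane space, had 303.2, 411.0, 375.4 and 389.2 on SMA vehicle and 662.0, 459.7, 479.9 and 527.9 on SMA ceftriaxone arrays. The groups did not overlap, and ceftriaxone array 1 was the highest of all. The difference was 0.50 ± 0.13 (adjusted p = 0.00911). A probe set shared by Ndufs5 and the pseudogene Ndufs5-ps differed by 0.10 (adjusted p = 0.402), so the 2 probe sets disagree.

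Ndufs7 rose by 0.36 ± 0.10 (adjusted p = 0.0146), with all ceftriaxone values above all SMA vehicle values, and lost its call without SMA vehicle array 4 (adjusted p = 0.0516). Ndufa13 rose by 0.30 ± 0.09 (adjusted p = 0.0182; 0.0544 without SMA vehicle array 4 and 0.0611 without ceftriaxone array 2). Ndufa2 rose by 0.27 ± 0.10 (adjusted p = 0.0434), Ndufb3 by 0.19 ± 0.07 (adjusted p = 0.0384) and Sdha by 0.20 ± 0.07 (adjusted p = 0.0381). These 3 were near the threshold: the Ndufa2 call was lost without any of 7 arrays and those of Ndufb3 and Sdha without any of 8, with adjusted p up to 0.137, 0.0876 and 0.103. Atp5h rose by 0.22 ± 0.06 (adjusted p = 0.0168; 0.0533 without SMA vehicle array 3 and 0.0549 without ceftriaxone array 4).

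Complex III had 0 calls of 8, also at an unadjusted p under 0.05, and its median difference was 0.09. Cox4i1 differed by 0.21 (adjusted p = 0.0710), with all ceftriaxone values above all SMA vehicle values. It passed without wildtype array 2 (adjusted p = 0.00620) or without wildtype array 4 (adjusted p = 0.0462). Cox8c differed by 0.26 (adjusted p = 0.168). Among the ring subunit genes Atp5g1 differed by -0.14 (adjusted p = 0.296) and Atp5g3 by 0.15 (adjusted p = 0.228). With Xist signal as a covariate, which separates the sexes, 3 members were higher, and with median centring 1 was. All 4 ceftriaxone arrays and 2 of 4 SMA vehicle arrays had Xist above 1000.

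Against wildtype, SMA ceftriaxone cords had few called differences. Limma called 0 members higher and 0 lower of 73, with 2 on each side at an unadjusted p under 0.05, against 3.29% higher and 0.928% lower over all kept probe sets. The median difference was -0.02, and 0.01 for all kept probe sets, and 43 of 73 differences were negative. Cox6b2 differed by 0.46 ± 0.15 (adjusted p = 0.103), Cox7a2l by 0.19 ± 0.06 (adjusted p = 0.0794) and Ndufb10 by -0.25 ± 0.08 (adjusted p = 0.0927). Among the 73 tested members, 1 was without overlap on the higher side, Cox7a2l, and 0 on the lower. Over all kept probe sets the shares were 7.68% and 3.92%. Of the members below the filter, Cox8b (29.4 to 77.0 against 78.6 to 189.4 in wildtype) and Cox7a1 (70.3 to 96.7 against 100.9 to 180.3) were without overlap on the lower side. With wildtype array 2 left out, 2 were called higher and 4 lower, against 6.29% and 4.27%, with a median of -0.08 against 0.02 for all kept probe sets. Without that array 67 of 73 differences were negative, and 21 members were lower and 2 higher at an unadjusted p under 0.05. The groups were then apart in 2 tested members on the higher and 14 on the lower side, against 12.8% and 11.1%.

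The 2 higher were Cox6b2 (0.53, adjusted p = 0.0433) and Cox7a2l (0.17, adjusted p = 0.0455). The 4 lower were Ndufb10 (-0.33, adjusted p = 0.00411), Atp5mpl (-0.21, adjusted p = 0.0121), Atp5g1 (-0.21, adjusted p = 0.0215) and Ndufc1, a small membrane-arm subunit (-0.20, adjusted p = 0.0257). A call missed with all arrays does not show that the groups were alike: at the median standard error of 0.08, differences of this size are near the limit.

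Further probe sets measured 39 members. Of these 55 probe sets, 48 had the sign of the brightest one in SMA vehicle against wildtype, 40 in SMA ceftriaxone against SMA vehicle and 36 in SMA ceftriaxone against wildtype. Where the brightest was called, 4 of 10 others had the same call in the first comparison and 3 of 5 in the next, and 0 had the opposite one in either. A few disagreed in size: a second probe set of Cox6c, whose brightest gave -0.13 (adjusted p = 0.285), gave -0.68 (adjusted p = 0.00233). One of the 4 other probe sets of Ndufa7, whose brightest gave 0.02, gave 0.54 (adjusted p = 0.000800), and in SMA ceftriaxone against SMA vehicle -0.65 (adjusted p = 0.000426). Other probe sets of Ndufc1 (-0.35, adjusted p = 0.00428), Ndufa3 (-0.27, 0.0235) and Atp5k (-0.23, 0.0318) passed in SMA vehicle against wildtype, where their brightest did not. With ceftriaxone against SMA vehicle this held for Ndufa5 (-0.29, adjusted p = 0.0163), Ndufb9 (0.28, 0.0228), Cox6c (0.44, 0.0373) and Ndufs4 (-0.42, 0.0219). The brightest Ndufs4 probe set gave 0.06 there. Of the probe sets with several symbols, which the rule leaves out, that of Ndufs6 and Ndufs6b gave -0.20 in SMA vehicle against wildtype (adjusted p = 0.0354).

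Genes around the respiratory chain were taken from lists written with earlier results of these data known. Each count of calls is to be read against the 22.3% of all kept probe sets called lower and 24.9% called higher in SMA vehicle against wildtype. Of 10 electron carrier genes 4 fell and 0 rose (limma; 0 higher also at an unadjusted p under 0.05), with a list median of -0.17 against 0.01 for all kept probe sets. Coq9, needed for ubiquinone synthesis, fell by 0.40 (adjusted p = 0.00715) and Etfb, of the electron-transferring flavoprotein, fell by 0.35 (adjusted p = 0.00171). Of 31 assembly factors 9 fell, a share near that background, and 1 rose, with a median of -0.10. Cox17, the copper chaperone of complex IV, fell by 1.14 ± 0.09 (adjusted p = 1.45e-06), more than any member, and Pet100, a complex IV assembly factor, fell by 0.62 (adjusted p = 0.000199). Atpaf2, an assembly factor of ATP synthase, rose by 0.56 (adjusted p = 0.00892).

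Of 15 regulators of mitochondrial gene expression 4 fell, again near the background of 22.3%. Esrra, a nuclear receptor that drives many respiratory genes, fell by 0.97 ± 0.14 (adjusted p = 9.87e-05), and Polg, the mitochondrial DNA polymerase, fell by 0.53 (adjusted p = 0.00362). The list's median was -0.19, and -0.01 without wildtype array 2. Of 16 citric acid cycle enzymes 4 fell, also near it, among them Suclg1 by 0.45 (adjusted p = 0.0111) and Idh3a by 0.29 (adjusted p = 0.0126). Of 9 carriers and channels 2 fell, at the background: Mpc1, of the pyruvate carrier, by 0.30 (adjusted p = 0.0210) and the adenine nucleotide carrier Slc25a5 by 0.24 (adjusted p = 0.00167). Mpc1 lost its call without wildtype array 3 or 4 or SMA vehicle array 4, with adjusted p up to 0.0656. When wildtype array 2 was left out, 6 of 9 carriers and channels and 8 of 16 cycle enzymes fell, against 27.5% of all kept probe sets.

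Of 74 mitochondrial ribosomal protein genes 14 fell and 6 rose, both shares below the 22.3% and 24.9% of all kept probe sets. Mrpl33 fell by 0.85 (adjusted p = 0.000488) and Mrpl36 by 0.75 (adjusted p = 1.03e-05), while Mrpl52 rose by 0.49 (adjusted p = 0.000401) and Mrpl50 by 0.34 (adjusted p = 0.00711). Of 14 glycolysis enzymes 4 rose and 5 fell, against the same background. Hk1, which phosphorylates glucose at the mitochondrial surface, rose by 0.80 ± 0.11 (adjusted p = 5.14e-05) and Ldha by 0.54 (adjusted p = 0.0188; 0.0616 without wildtype array 3 and 0.0507 without wildtype array 4). Ldhb, the other lactate dehydrogenase subunit, fell by 0.42 (adjusted p = 0.000566) and Pgk1 by 0.34 (adjusted p = 0.00298).

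In SMA ceftriaxone against SMA vehicle, 3 of 10 electron carriers, 3 of 15 regulators and 2 of 9 carriers and channels rose, against 18.3% of all kept probe sets called higher and 17.7% lower. The shares of the regulators and of the carriers and channels are near that background. Cox17 rose by 0.86 ± 0.09 (adjusted p = 5.28e-05), Foxred1, an assembly factor of complex I, by 0.41 (adjusted p = 0.00455) and Esrra by 0.67 (adjusted p = 0.00258). Of the assembly factors 5 rose and 4 fell, and of the mitochondrial ribosomal proteins 10 rose and 5 fell, both shares below it, with Mrpl36 at 0.51 (adjusted p = 0.000376) and Mrpl52 at -0.52 (adjusted p = 0.000567). Hk1 fell by 0.48 (adjusted p = 0.00380) and Ldhb rose by 0.37 (adjusted p = 0.00256). Limma called 0 of 16 citric acid cycle enzymes, with 4 higher at an unadjusted p under 0.05.

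Against wildtype, where 0.928% of all kept probe sets were called lower, SMA ceftriaxone cords had 1 of 31 assembly factors lower, Bcs1l of complex III (-0.49, adjusted p = 0.0111). Of 74 ribosomal protein genes 2 were lower, Mrps21 (-0.41, adjusted p = 0.0103) and Mrps25 (-0.34, adjusted p = 0.0469), and Mrps25 lost its call without any of 10 arrays, with adjusted p up to 0.113. Cox17, Esrra, Hk1 and Ldhb passed in both comparisons of SMA vehicle cords under each array left out.

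**Figure D5:**
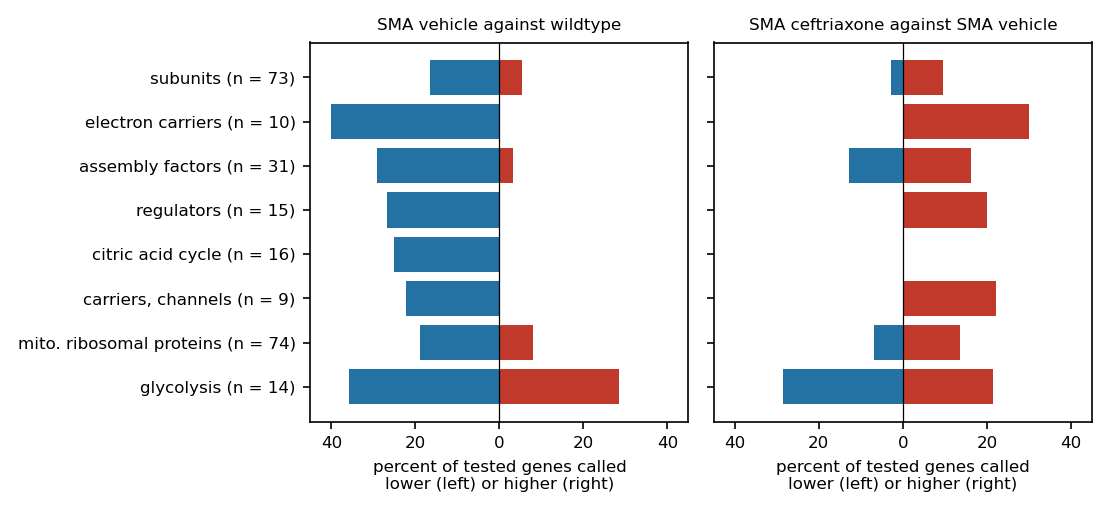
Percent of the tested genes of the subunits and of each pathway list that limma called lower (left of 0, blue) or higher (right of 0, red) in SMA vehicle against wildtype and in SMA ceftriaxone against SMA vehicle, with the number tested beside each name. The subunits had 12 lower and 4 higher of 73 in the first and 2 lower and 7 higher in the second, and glycolysis enzymes had calls on both sides in each.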

How the data were processed

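Cord RNA from 12 mice was measured on 1 Affymetrix expression array each, 4 per group by the labels. The file holds the authors' MAS5 signal intensity, untransformed, as the submitters' processing notes name it, with the version not given in the sources used here. The deposited arrays had been scaled to 1 level: with 2% of probe sets trimmed at each end, array means were 700.2 to 700.3. Detection calls were not used here.

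For the analysis 64 control probe sets of 22690 were removed, 16 was added and log2 taken. Those with a mean log2 value over the 40th percentile stayed in (13575; the dimmest had a mean of 7.14, or a geometric mean signal near 125). A log2 difference on this scale understates the change of dim genes. Group means were fitted to all 12 arrays (limma 3.58.1 under R 4.3.3; lmFit, then eBayes with a trend on intensity; 9 residual degrees of freedom). The p-values of single genes are two-sided, Benjamini-Hochberg adjusted over every probe set tested, and the code was tested on simulated data.

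Members, lists, models and naming rule were set with earlier results of these data known. Named by rule were, per comparison and complex, the 2 members of largest called rise and fall, the core and isoform subunits, X-linked members, Smn1, and per list the 2 genes of largest called rise and fall. Ndufb3, Ndufa13, Ndufa9, Ndufb6, Ndufc1, Ndufa7, Cox6c, Cox7c, Uqcr11, Ndufs6, Acta1, Ucp1 and Xist, and the members given only to complete a complex, were chosen after their values were seen. Alternatives were offsets, normalizations, filters, fits, covariates and leaving out each array.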

Additional observations from a re-analysis of the deposited data

Results flagged for a closer look

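Sets of 4 arrays were searched in each of the 3 groups: the signals of the named members and the medians over each complex, all tested members and all kept probe sets. In 7 of 168 sets a single array lay far from the others by Dixon's criterion. Chance gives such a gap in about 1 in 20 independent groups. These sets share arrays, so that share cannot tell whether the 7 gaps came by chance. On wildtype array 2, Ndufs5 had a signal of 382.8 against 468.5 to 480.6 on the other wildtype arrays. Ndufb3 had 3099.3 there against 3651.7 to 3679.7, and Uqcr11 had 4375.2 against 5953.2 to 6234.7. Cox7c lay the other way on that array, at 143.2 against 56.7 to 66.9. Ndufa2 had 5075.4 on wildtype array 3 against 4503.5 to 4562.6. Ndufs1 had 3226.1 on SMA vehicle array 3 against 2980.6 to 3008.3. Uqcrc2 had 7393.7 on SMA ceftriaxone array 3 against 7568.2 to 7603.8.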

How the results depend on the processing

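The medians of the members kept their sign under all 28 alternatives in SMA vehicle against wildtype (-0.18 to -0.06) and in SMA ceftriaxone against SMA vehicle (0.05 to 0.10), while in SMA ceftriaxone against wildtype leaving out 1 array gave -0.08 to 0.03. Counts moved more. Lower members in SMA vehicle against wildtype were 3 with median centring, 46 with array weights, and 8 to 45 when 1 array was left out. Chosen after seeing the data were quantile normalization without wildtype array 2 (35), loess normalization (37) and loess without that array (46). Higher members with ceftriaxone against SMA vehicle were 11 with quantile normalization, 1 with median centring, 4 without the intensity trend, 22 with array weights, 24 with only the groups compared, 3 with Xist as a covariate and 2 to 22 with 1 array left out. They were 24, 14 and 27 under the 3 added settings, in the order above. Lower ones were 4 with array weights, with only the groups compared and with quantile normalization without wildtype array 2, and 2 to 3 with 1 array left out. Against wildtype, ceftriaxone cords had 1 lower with quantile normalization and 2 higher and 5 lower with array weights. Leaving out 1 array gave 0 to 2 higher and 0 to 4 lower. Quantile normalization without wildtype array 2 gave 2 and 2, loess 2 lower, and loess without that array 2 higher and 6 lower. The causes were not tested.

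Of the named members' values under the 13 other settings, 1621 kept direction and side of the threshold, 52 came to pass and 40 ceased to. Replicate numbers did not pair the arrays: deviations of same-numbered arrays correlated at -0.143 to 0.133, with 2 of 12 pairs over 0.1 and 3 of 12 arrays closest to their own number. With the replicate number as a block, SMA vehicle against wildtype had 4 higher and 13 lower, ceftriaxone against SMA vehicle 4 and 2, and ceftriaxone against wildtype 0 and 0. Signal near background limits Cox4i2, Cox6a2, Cox7a1, Cox7c and Cox8b.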
